A study of Homo sapiens with 12 samples.

Results

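The 47 genes described here encode proteins that carry cells through G2 and mitosis, from the cyclins and CDK1 that start division to the motors and GTPase regulators that end it. Expression was read in cells labeled MDA-MB-231, an established human line of mesenchymal, triple-negative breast cancer grown as a monolayer, on Illumina HumanHT-12 v4 BeadChips. Members were the rows of the deposited log2 table that carry a listed gene symbol, with the probe of highest mean over the 12 arrays taken where a symbol has several. All 47 symbols were found, on 74 of the 47231 probes, among 31334 gene symbols. There were 6 culture conditions of 2 arrays each, and each is called here by what sets it apart. The 0.1% FBS cells were kept in MEM with 0.1% fetal bovine serum (FBS) and the HS cells in MEM with 10% horse serum, both to 90% confluence. The DMEM and RPMI-1640 cells were kept in those media with 10% FBS to 90% confluence. The 50% confluence cells were kept in MEM with 10% FBS and harvested at 50% confluence, and the MEM cells had the same medium and serum at 90% confluence. The methods add glutamine, pyruvate, non-essential amino acids, vitamins and antibiotics to all media. Nothing in the labels says that the 2 arrays of a condition came from separate cultures, so the tests measure the spread between arrays, which may be technical.

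Genes of mitosis are transcribed late in each division cycle and are silenced when cells leave it. In resting cells the DREAM complex, built on the MuvB core, holds many of their promoters down through a short element called the CHR (cell cycle genes homology region). In dividing cells the same core works with B-MYB and FOXM1 to switch these promoters on, often together with NF-Y bound at CCAAT boxes. Cyclin B with CDK1 then drives entry into mitosis, the spindle checkpoint holds anaphase until chromosomes are attached, and the anaphase-promoting complex (APC/C) with CDC20 releases it. Several of these genes, MKI67 among them, serve as measures of proliferation in breast tumors.

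All 47 members gave a signal above background on both arrays of at least 1 condition. Background was taken on each array as the 95th percentile of 463 olfactory receptor probes, 6.90 to 6.99 on the log2 scale. Between 45 and 47 members were above it on each array. The members were lowest with 0.1% FBS: 32 of the 47 had their lowest mean there among the 6 conditions, and none had its highest. Counts of this kind, here and below, were made for the members only and not over all probes. When each gene was set against its own mean over the 12 arrays, the median member stood at -0.78 and -0.46 (log2) on the 0.1% FBS arrays and at -0.28 and -0.22 on the HS arrays. It stood at 0.15 and 0.07 with DMEM, at 0.41 and 0.36 with RPMI-1640, at 0.24 and 0.30 at 50% confluence and at 0.18 and 0.19 with MEM. Both arrays of 0.1% FBS and both of HS thus lay below all arrays of the other 4 conditions. These are bulk samples, in which fewer dividing cells and less mRNA in each dividing cell cannot be told apart.

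**Figure D1:**
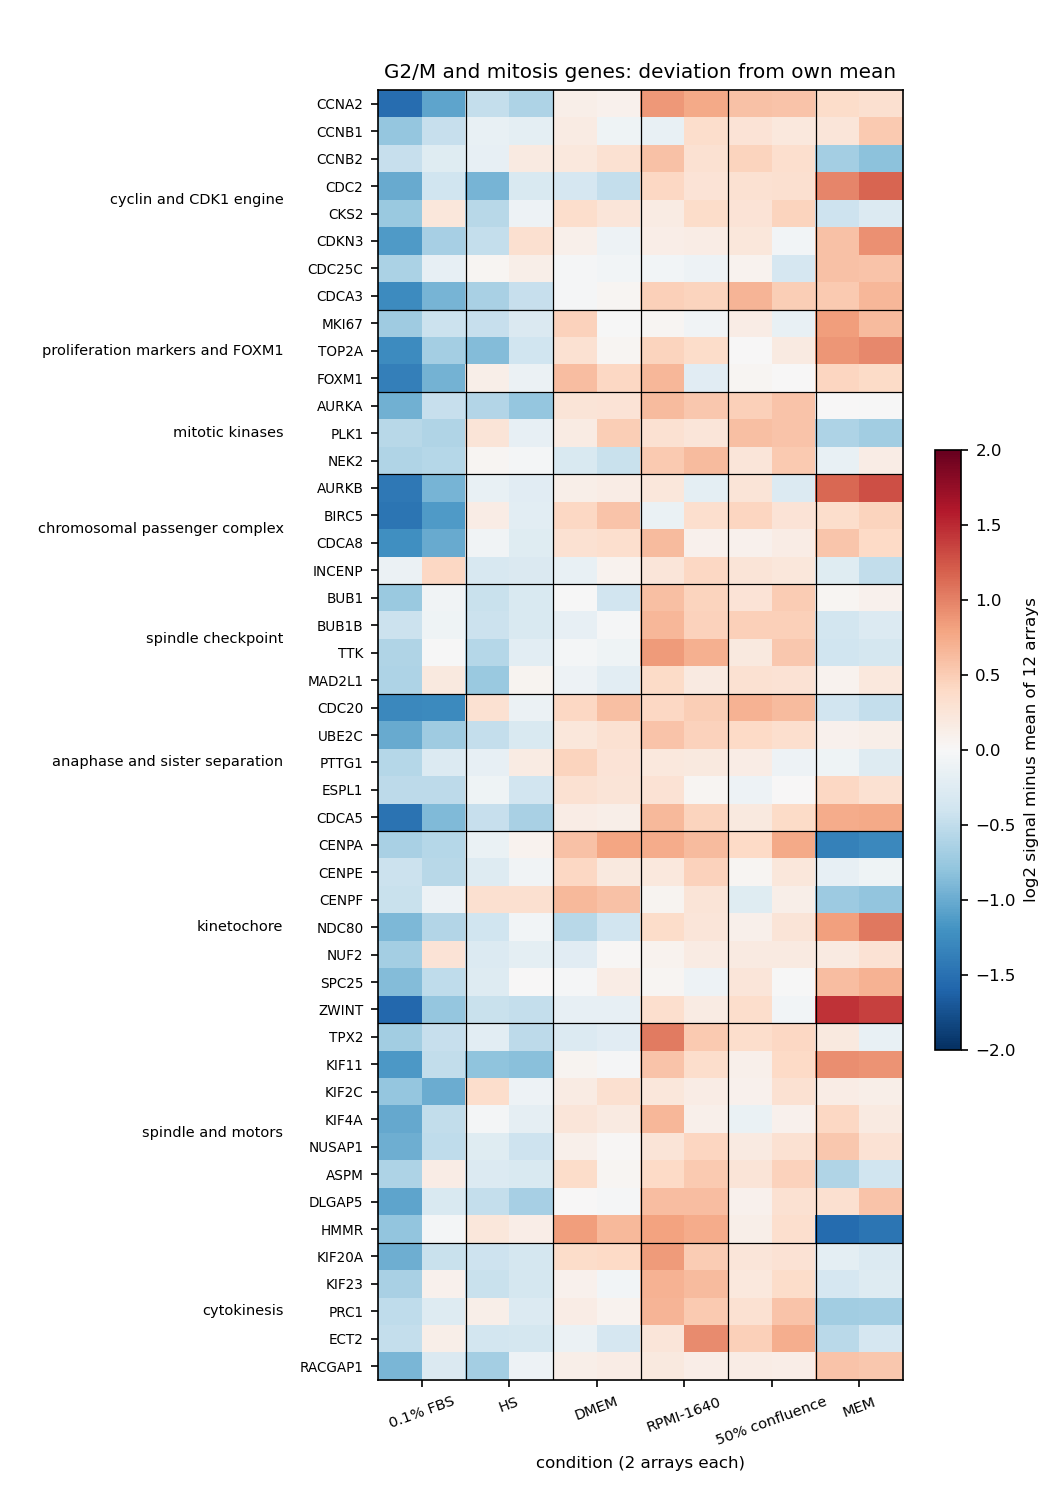
Log2 signal of the 47 members on each of the 12 arrays, as the difference from the gene's own mean over the 12 arrays (color scale), with genes in rows by role and arrays in columns by condition. The 0.1% FBS columns are mostly blue, with medians of -0.78 and -0.46, while the MEM columns hold both red cells (ZWINT, AURKB) and blue cells (HMMR, CENPA).

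Nearly all members differed between conditions. By limma's F test over the 6 conditions, 45 of the 47 members passed an adjusted p of 0.05, the limit used for every call here, while 30.1% of all probes did. Over the 5 conditions other than MEM, 43 of the 47 members passed it, against 19.9% of all probes. CCNA2 (cyclin A2, the partner of CDK2 and CDK1) had the widest range of condition means in those 5, at 2.10 on the log2 scale. CDC20, which activates the APC/C, followed with 1.94, and BIRC5 (survivin, a subunit of the chromosomal passenger complex) with 1.79. The narrowest range was that of NUF2, an Ndc80 complex subunit, at 0.41. NUF2 was not called (adjusted p = 0.437), and neither were MAD2L1 (0.138), CDC25C (0.172) and CKS2 (0.0626).

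The 2 MEM arrays stood apart from the other 10 over all probes. Pearson correlations were 0.914 to 0.940 between a MEM array and an array of another condition, 0.964 to 0.991 between arrays of 2 other conditions and 0.987 to 0.996 within a condition. Of 12 markers of the line, all 12 were above background on both arrays with MEM and 9 or 10 in each other condition. VIM and CD44 were high on all 12 arrays (13.66 to 14.38 and 11.97 to 13.39), but most of the 12 were lower outside MEM. Against MEM, 8 were called lower and 2 higher with 0.1% FBS, and 8 and 1 with HS. The counts were 9 and 0 with DMEM, 6 and 2 with RPMI-1640, and 7 and 3 at 50% confluence. KRT8, a keratin of the line, was at 10.29 and 9.80 on the MEM arrays and at about background on the other 10, where its lowest value was 6.56 and 1 array, of 0.1% FBS, lay just above the limit. SOX10, a melanocyte-lineage regulator, was at 8.29 and 8.22 on the MEM arrays and between 9.65 and 11.11 on the other 10. The summed linear signal of the 13 melanocyte-lineage markers was 13500 to 16400 with 0.1% FBS, 4400 to 4530 with HS, 7660 to 8480 with DMEM, 6570 to 6750 with RPMI-1640, 4160 to 4430 at 50% confluence and 2700 to 2950 with MEM. Of these 13, 8 were above background on both MEM arrays and 8 or 9 in each other condition. TYRP1 and S100B were below background on all 12 arrays. Against MEM, 9 of the 13 were called higher with 0.1% FBS, 5 with HS, 7 with DMEM, 7 with RPMI-1640 and 5 at 50% confluence. TYR was lower with HS (-0.94), RPMI-1640 (-0.42) and 50% confluence (-0.81). CAPN3 was lower with RPMI-1640 (-0.66) and 50% confluence (-1.19). On the 10 arrays outside MEM the low KRT8 and high SOX10 go against the label of the cells. SOX10 was above background on the MEM arrays too, so the identity of the cells is in doubt on all 12 arrays. Whether all 12 hold the same cells was not tested. Luminal markers were at or near background throughout (0 or 1 of 8 above it on both arrays of a condition). The melanocyte-lineage sum moved with the conditions compared below, and its part in any result was not tested. Comparisons that do not use the MEM arrays are therefore given first.

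With 0.1% FBS, 40 of the 47 members were downregulated against cells at 50% confluence and none was upregulated. Over all probes 10.8% were called in this comparison, 5.43% higher and 5.39% lower. Among the 20837 probes above background on both arrays of some condition, 24.1% were called. The members' median difference was -0.88 (log2), a 1.84-fold lower signal, where the median of all probes lay near 0. The difference was negative for all 47. At a further limit of 2-fold 17 members were lower, where 1.62% of all probes were called. Serum and cell density both differ between these conditions and cannot be told apart here.

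Of the engine that starts mitosis, 6 of 8 genes were downregulated. CCNA2 read 8.48 and 8.95 with 0.1% FBS, against 10.59 and 10.56 at 50% confluence, a 3.64-fold lower signal (log2 difference -1.86, SE 0.12, adjusted p = 1.41e-07). CDCA3, which promotes entry into mitosis, read 7.67 and 7.99 against 9.61 and 9.42 (-1.68, adjusted p = 2.13e-07). CCNB1 (cyclin B1) read 7.58 and 7.90 against 8.64 and 8.58 (-0.87). In these 3 genes the arrays of the conditions did not overlap. Such remarks, here and below, mostly concern genes named for their large differences. Overlap was not counted over all probes, so they describe the values and add no support. CDC2, the older symbol of CDK1 itself, was lower by a difference of -1.02, CDKN3, a phosphatase acting on CDKs, by -0.99 and CCNB2 (cyclin B2) by -0.74. CKS2, which binds CDK1, differed by -0.62 and CDC25C, the phosphatase that activates CDK1, by -0.26, and these were not called.

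The proliferation markers and FOXM1 were all lower. FOXM1, the transcription factor of the late cell cycle genes, read 7.28 and 7.70 with 0.1% FBS, against 8.68 and 8.65 at 50% confluence (-1.18, SE 0.21, adjusted p = 0.0011). TOP2A, the topoisomerase that untangles replicated DNA, read 9.31 and 9.88 against 10.58 and 10.75 (-1.07). MKI67 (Ki-67, a coat protein of mitotic chromosomes) read 6.58 and 6.86 against 7.44 and 7.14. Its probe was not above background on either 0.1% FBS array, so that its signal there has only an upper bound and the fold is at least 1.25 lower, with the mean of 50% confluence set against the background level of each 0.1% FBS array (adjusted p of the fit 0.0231).

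The 3 mitotic kinases outside complexes were lower by similar amounts. AURKA, the kinase of centrosomes and spindle poles, differed by -1.23, PLK1, a kinase of mitotic entry and exit, by -1.17 and NEK2, which helps centrosomes separate, by -0.96. In the chromosomal passenger complex 3 of 4 subunits were lower. BIRC5 read 8.03 and 8.36 with 0.1% FBS, against 9.93 and 9.76 at 50% confluence (-1.65, adjusted p = 4.36e-06). AURKB, the kinase of the complex, read 8.46 and 8.96 against 10.15 and 9.63 (-1.18), and CDCA8 (borealin) 8.36 and 8.60 against 9.69 and 9.74 (-1.23). The scaffold subunit INCENP did not follow: it read 8.12 and 8.64 against 8.50 and 8.46, with overlapping arrays (-0.10, adjusted p = 0.824).

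All 5 genes of anaphase and sister separation were lower. CDC20 had the largest difference of the members, with 10.83 and 10.85 with 0.1% FBS against 12.82 and 12.75 at 50% confluence, 3.84-fold lower (-1.94, SE 0.12, adjusted p = 8.02e-08). CDCA5 (sororin, which protects sister cohesion) read 9.40 and 9.99 against 11.06 and 11.25 (-1.46). UBE2C, the ubiquitin-conjugating enzyme of the APC/C, differed by -1.22, ESPL1 (separase, which cuts cohesin) by -0.49 and PTTG1 (securin, its inhibitor) by -0.44. CDC20 and UBE2C, which drive the APC/C reaction, thus had larger differences than separase and securin, though the gap between genes was not tested. ESPL1 read 7.03 on both 0.1% FBS arrays, just above their background of 6.98 and 6.97, which limits how large its difference can be.

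The 4 spindle checkpoint genes had a median difference of -0.70. BUB1 differed by -0.80, BUB1B by -0.73 and TTK by -0.67, and these 3 proteins of the kinase family were called, while MAD2L1 (-0.51, adjusted p = 0.225) was not. Of the 7 kinetochore genes 5 were lower, led by ZWINT, a linker at the outer kinetochore, which read 8.20 and 8.99 with 0.1% FBS against 10.12 and 9.71 at 50% confluence (-1.32, adjusted p = 0.000175). CENPA, the histone H3 variant that marks centromeres, differed by -1.19, NDC80 by -0.92, SPC25 by -0.80 and the kinetochore motor CENPE by -0.62. NUF2, which pairs with NDC80, differed by -0.37 and CENPF by -0.21, and both had overlapping arrays.

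Of the 8 genes of the spindle and its motors 7 were lower. KIF2C, which depolymerizes microtubules, and KIF11, the motor that pushes spindle poles apart, each differed by -1.07. NUSAP1, a spindle assembly factor, differed by -0.99, TPX2, the activator of Aurora A on the spindle, by -0.96, DLGAP5 by -0.88, the chromosome motor KIF4A by -0.73 and HMMR, a hyaluronan receptor that also binds spindles, by -0.65. ASPM, a spindle pole protein, differed by -0.59 (adjusted p = 0.0535). All 5 cytokinesis genes were lower, by differences between -0.97 for KIF20A, a motor of the central spindle, and -0.58 for KIF23, the motor of centralspindlin. PRC1, which bundles the central spindle, differed by -0.83, ECT2, which activates RhoA there, by -0.78 and RACGAP1, the partner of KIF23, by -0.75.

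**Figure D2:**
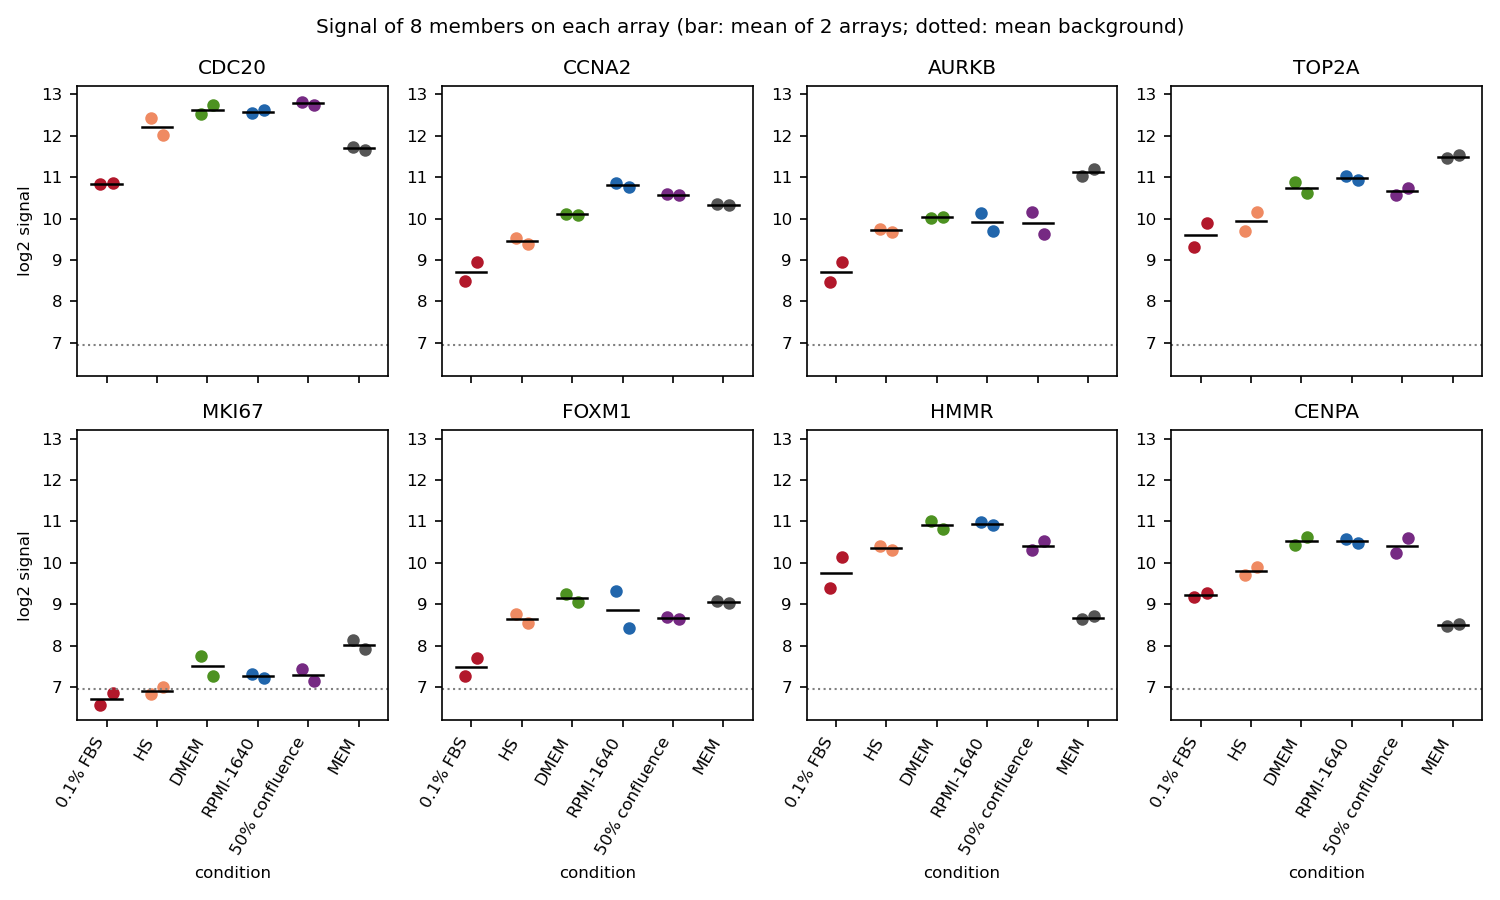
Log2 signal of 8 members on the 2 arrays of each condition (points), the mean of each condition (bar) and the mean background level (dotted line). CDC20, CCNA2, AURKB, TOP2A and FOXM1 are lowest with 0.1% FBS, MKI67 lies at background there, and HMMR and CENPA are lowest with MEM, at 8.68 and 8.51.

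Because CHR and CCAAT elements are known from promoters of mitotic genes, the members' promoters were read from RefSeq (GRCh38.p14), 250 bases before to 50 after each annotated start. Of the 47 members 40 were matched, CDC2 under its current symbol CDK1, and the first window was taken for the 6 genes with several. FOXM1, AURKA, BIRC5, TTK, UBE2C, TPX2 and RACGAP1 were not matched. The letters searched on both strands were TTTGAA and TTTAAA, which are 2 forms of the CHR, and CCAAT, the box of NF-Y. The form TTTAAA reads the same on both strands, and matches may overlap each other. TTTGAA or TTTAAA stood in 34 of the 40 windows (85.0%), against 24.0% of all 35116 windows and 20.2% of those of protein-coding genes. From position -100 to the end of the window, 31 of the 40 (77.5%) held one, against 11.4% of all windows. CCAAT stood in 33 of the 40 (82.5%, against 34.6% of all), and 22 of the 40 (55.0%, against 10.8%) held it 2 or more times. Both elements were in 29 of the 40 windows (72.5%, against 9.27%). These shares describe letters, not binding.

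The 4 windows below belong to the members with a TTTGAA or TTTAAA match that had the largest differences between 0.1% FBS and 50% confluence, and are shown 5′ to 3′ in the direction of transcription so that the spacing of the elements can be seen. Capitals mark the matches to TTTGAA and CCAAT, which appear as their reverse complement where the match is on the other strand. Positions count the first transcribed base as 0 and refer to the middle of a match. CDC20 is at chr1:43358731-43359030 (+), CDCA3 at chr12:6851237-6851536 (-), ZWINT at chr10:56361210-56361509 (-) and CDCA8 at chr1:37692266-37692565 (+).
CDC20: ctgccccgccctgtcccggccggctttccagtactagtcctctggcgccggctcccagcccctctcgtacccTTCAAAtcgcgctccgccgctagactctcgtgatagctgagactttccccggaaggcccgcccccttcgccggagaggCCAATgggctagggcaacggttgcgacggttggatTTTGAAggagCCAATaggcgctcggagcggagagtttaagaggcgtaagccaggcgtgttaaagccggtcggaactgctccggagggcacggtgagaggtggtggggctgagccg
CDCA3: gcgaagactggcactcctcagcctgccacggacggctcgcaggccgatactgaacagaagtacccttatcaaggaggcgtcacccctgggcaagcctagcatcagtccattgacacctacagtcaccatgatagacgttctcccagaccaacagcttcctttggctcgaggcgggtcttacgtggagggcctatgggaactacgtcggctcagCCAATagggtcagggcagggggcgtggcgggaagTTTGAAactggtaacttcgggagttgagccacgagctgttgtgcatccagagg
ZWINT: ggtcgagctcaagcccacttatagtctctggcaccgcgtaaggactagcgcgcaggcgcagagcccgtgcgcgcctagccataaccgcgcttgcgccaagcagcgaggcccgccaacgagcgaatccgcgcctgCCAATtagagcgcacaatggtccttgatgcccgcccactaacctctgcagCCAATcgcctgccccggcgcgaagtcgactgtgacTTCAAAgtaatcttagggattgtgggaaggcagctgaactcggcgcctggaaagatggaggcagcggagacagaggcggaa
CDCA8: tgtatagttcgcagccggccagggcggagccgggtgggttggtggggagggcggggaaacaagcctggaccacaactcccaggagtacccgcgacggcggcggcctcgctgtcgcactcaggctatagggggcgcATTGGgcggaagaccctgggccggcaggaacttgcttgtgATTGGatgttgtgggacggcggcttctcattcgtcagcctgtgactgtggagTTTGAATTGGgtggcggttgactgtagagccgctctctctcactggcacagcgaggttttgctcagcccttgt
In CDC20 a TTTGAA at -62 lies between CCAAT boxes at -98 and -53, and another TTTGAA lies at -175. In ZWINT the element lies at -28, downstream of CCAAT boxes at -114 and -64. In CDCA3 it lies at the start itself, with a CCAAT box at -35. In CDCA8 the element at -20 shares letters with the nearest box at -16, and further boxes lie at -113 and -73. Over the 40 members the 53 CHR-type matches had a median position of -28 from the start and the 72 CCAAT matches one of -70.0. No TTTGAA or TTTAAA stood in the windows of CCNA2, CDCA5, AURKB, NEK2, BUB1 and CDC25C, and CDCA5 and CDC25C had no CCAAT either. CCNA2 (-1.86) and CDCA5 (-1.46) had larger differences than ZWINT and CDCA8.

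The 2 arrays of 0.1% FBS did not read alike for these genes. Of the 47 members 43 were higher on array 2 than on array 1, by a median of 0.46, while 50.2% of all probes were higher on array 2. Of 38 genes of G1/S and DNA replication 36 were higher on array 2 as well, by a median of 0.50. The largest gaps were those of CKS2 (11.00 and 11.96) and NUF2 (7.41 and 8.36), and for both array 1 was the lowest of the 12. CDC20 (10.83 and 10.85), ESPL1 (7.03 and 7.03, just above background) and NEK2 (8.60 and 8.63) hardly differed. In the other 5 conditions the median of array 2 minus array 1 lay between -0.10 and 0.05. The median SD of a member between arrays was 0.33 with 0.1% FBS and 0.06 to 0.13 elsewhere. The fit takes 1 spread per gene over all 6 conditions. For many members the SE and adjusted p given for 0.1% FBS may therefore be too small. Without 0.1% FBS array 1, 30 members were called against 50% confluence, and without array 2, 45 were.

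**Figure D3:**
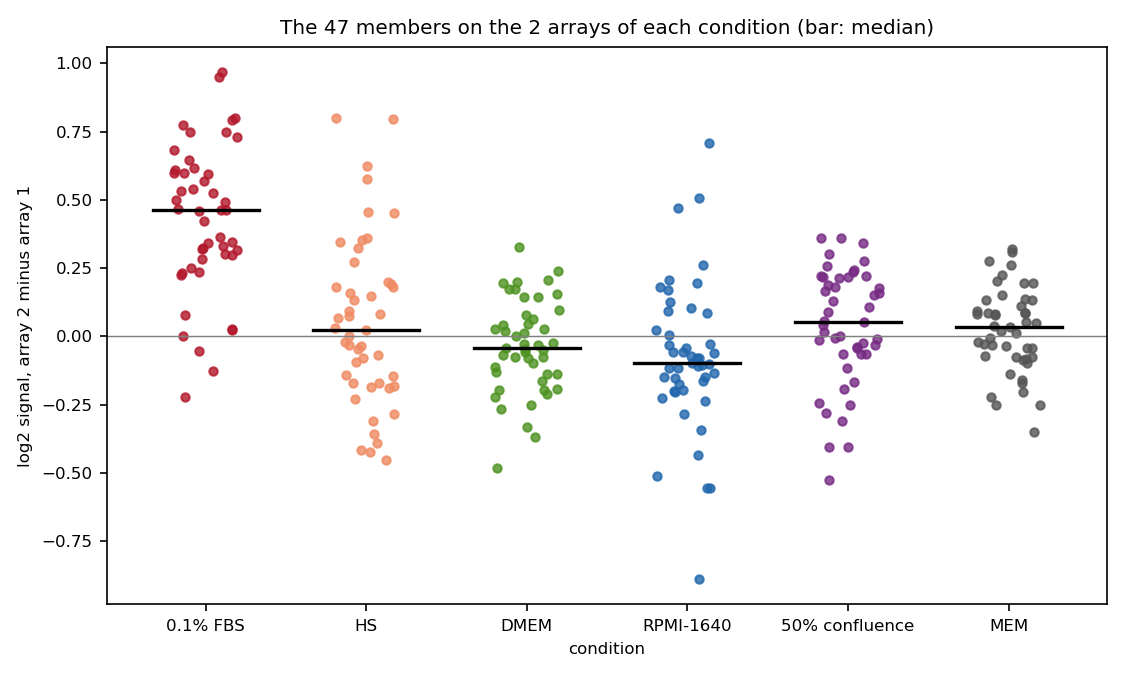
Log2 signal on array 2 minus that on array 1 for each of the 47 members (points) in each condition, with the median as a bar. With 0.1% FBS 43 of the 47 points lie above 0 and the median is 0.46, while the other medians lie between -0.10 and 0.05.

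By their labels cells in 0.1% FBS and cells in HS share medium and density and differ in serum kind and amount. Here 21 of the 47 members were downregulated with 0.1% FBS and none was upregulated, where 11.5% of all probes were called, 6.03% higher and 5.52% lower. Among probes above background 25.3% were called. At 2-fold 5 members and 1.18% of all probes were called. The median difference of the members was -0.41. CDC20 led again, with 10.83 and 10.85 with 0.1% FBS against 12.43 and 12.01 with HS (-1.38, SE 0.12, adjusted p = 3.36e-06). BIRC5 read 8.03 and 8.36 against 9.63 and 9.28 (-1.26), and FOXM1 7.28 and 7.70 against 8.76 and 8.53 (-1.16). The arrays did not overlap for any of the 3. KIF2C (-1.01), AURKB (which fell by 1.00), CDCA8 (-0.97), CDKN3 (-0.82) and CCNA2 (-0.73) completed the 8 largest. By role, 3 of 4 chromosomal passenger genes and 5 of 7 kinetochore genes were lower, and 0 of 4 spindle checkpoint genes and 0 of 5 cytokinesis genes. TOP2A (-0.34) and CCNB1 (-0.45) were not called. MKI67 was above background on no 0.1% FBS array and on 1 HS array, so no difference is given for it. Without HS array 2, or without 0.1% FBS array 1, 14 members were called, and with these 2 conditions fitted alone 10 were.

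Against 50% confluence the HS cells had 23 members downregulated and none upregulated, with 9.48% of all probes called, 4.55% higher and 4.93% lower, and a member median of -0.54. Among probes above background 20.9% were called. At 2-fold 4 members and 0.821% of all probes were called. Serum kind and density both differ here and cannot be told apart. AURKA led with 10.29 and 10.10 with HS against 11.35 and 11.44 at 50% confluence (-1.20, SE 0.13, adjusted p = 4.66e-05). CDCA3 read 8.28 and 8.47 against 9.61 and 9.42 (-1.14), CCNA2 9.52 and 9.37 against 10.59 and 10.56 (-1.13) and KIF11 8.19 and 8.15 against 9.09 and 9.39 (-1.07). None of these 4 overlapped. ECT2 (-0.96), CDC2 (-0.92), BUB1B (-0.84) and CDCA5 (-0.84) followed. In this comparison 4 of 5 cytokinesis genes and 3 of 4 spindle checkpoint genes were lower, and 1 of 7 kinetochore genes. TOP2A was lower too (-0.73), while FOXM1 (-0.02), AURKB (-0.18), MKI67 (-0.37, above background on 1 HS array) and CCNB1 (-0.41) were not called. FOXM1 read 8.76 and 8.53 with HS, against 8.68 and 8.65 at 50% confluence. The count fell to 15 members without HS array 1 and to 10 without array 2 of 50% confluence, of which 9 were lower and 1 was higher.

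Among these members some read in HS close to 0.1% FBS and others close to 50% confluence. AURKA and BUB1 each differed by -0.03 between 0.1% FBS and HS (adjusted p = 0.932 and 0.949), with an SE of 0.13 and 0.18. FOXM1 differed by -0.02 and KIF2C by -0.07 between HS and 50% confluence (adjusted p = 0.982 and 0.863), with an SE of 0.21 and 0.13. A p above the limit does not show that levels were equal. These 4 genes were picked after their values were seen, and the HS arrays enter both comparisons.

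By their labels DMEM and RPMI-1640 differ in medium alone. Of the 12 markers of the line 6 were called lower with DMEM and 0 higher. Among the 13 melanocyte-lineage markers 1 was called, CAPN3 (1.91). The part of these differences in the results was not tested. In DMEM 12 of the 47 members were lower than in RPMI-1640 and none was higher, where 5.33% of all probes were called, 2.35% higher and 2.98% lower, and 11.9% of those above background. The member median was -0.24. TPX2 read 10.71 and 10.75 with DMEM against 12.01 and 11.50 with RPMI-1640 (-1.03, SE 0.16, adjusted p = 0.00109), and it was the one member past 2-fold, a limit that 0.464% of all probes passed. NEK2 read 8.89 and 8.75 against 9.72 and 9.83 (-0.96, adjusted p = 0.00018), and TTK, the checkpoint kinase, 9.61 and 9.57 against 10.51 and 10.36 (-0.85). The arrays of these genes did not overlap. ECT2 (-0.82), NDC80 (-0.77), CDC2 (-0.75), BUB1 (-0.72) and CCNA2 (-0.71) were the next largest. By role, 3 of 4 spindle checkpoint genes and 3 of 5 cytokinesis genes were among the calls. MKI67 (0.24), FOXM1 (0.30), AURKB (0.11), TOP2A (-0.24) and CCNB1 (-0.06) were not called. The count rests on single arrays: it was 4 and 5 without DMEM array 1 and 2, and 6 without either RPMI-1640 array. Without RPMI-1640 array 1, 5 of these 6 were lower and 1 was higher.

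The further pairs of conditions, added after the data were seen, set the media beside 50% confluence and the serum conditions beside the media. Between RPMI-1640 and 50% confluence no member was called, and 0.220% of all probes were (0.121% higher and 0.0995% lower). Between DMEM and 50% confluence 8 members were lower and 1 was higher (8.35% of all probes, 4.09% higher and 4.26% lower). The call took in 19.1% of the members and 18.6% of all probes above background, so the members' share lay near that of other expressed genes. The higher one was CENPF, with 10.47 and 10.42 with DMEM against 9.58 and 9.94 at 50% confluence (0.68). With 0.1% FBS 41 members were lower than with RPMI-1640 (8.53% of all probes called, 4.14% higher and 4.38% lower) and 32 lower than with DMEM (11.9% of probes, 6.05% higher and 5.82% lower), and none was higher. With HS 28 were lower than with RPMI-1640 (8.46% of probes, 3.64% higher and 4.82% lower) and 12 lower than with DMEM (5.04% of probes, 2.38% higher and 2.66% lower), and none was higher. Among probes above background 19.2% were called for 0.1% FBS against RPMI-1640 and 26.2% against DMEM. For HS these shares were 18.8% and 11.3%. RPMI-1640 had the highest mean of the 5 conditions other than MEM in 29 members.

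**Figure D4:**
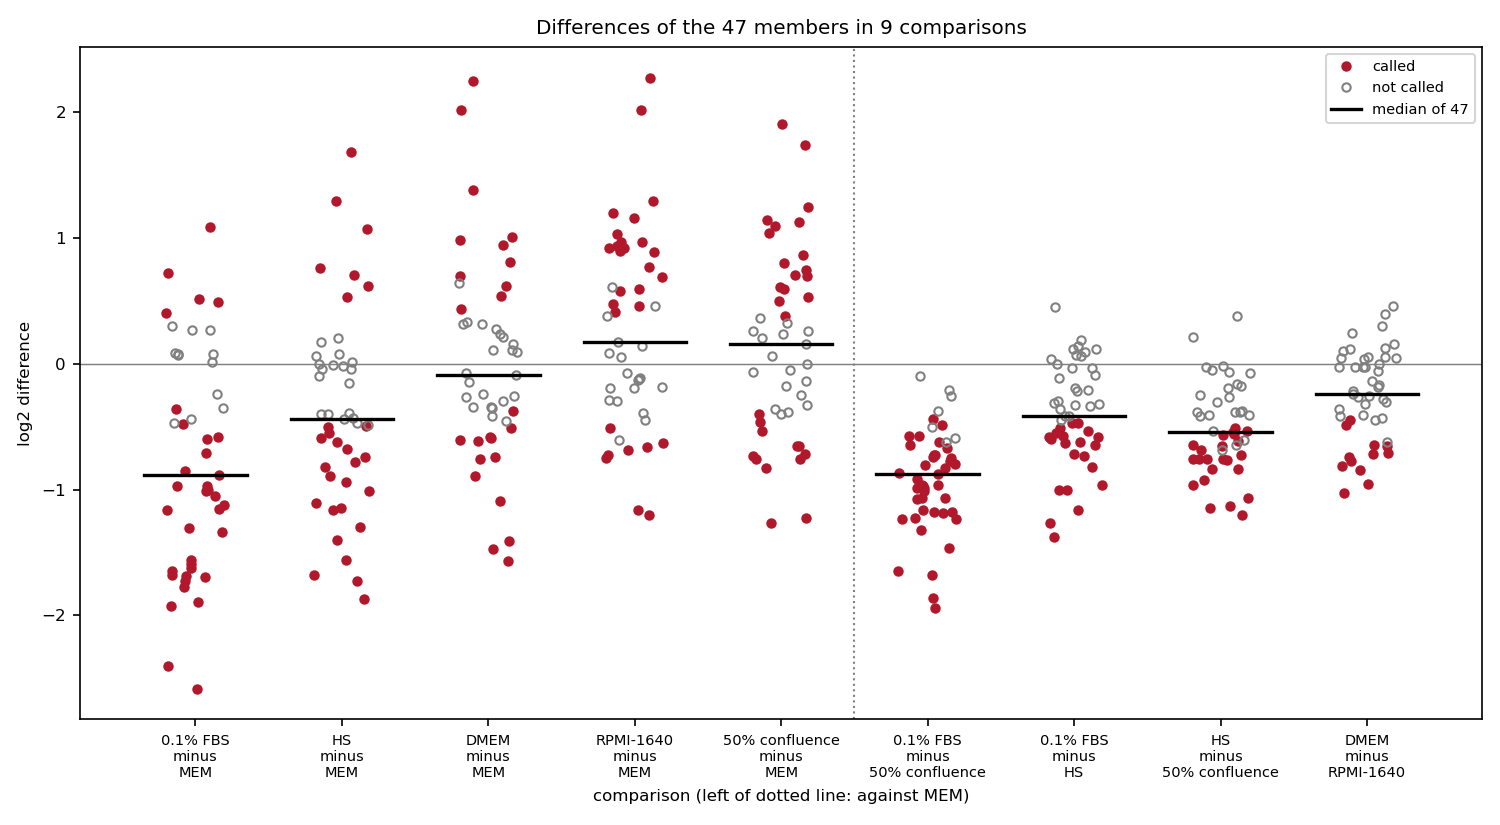
Log2 difference of each of the 47 members (points) in the 9 planned comparisons, filled where called, with the median of the 47 as a bar. Against MEM the members spread on both sides of 0, while the comparison of 0.1% FBS with 50% confluence has all 47 below 0 and a median of -0.88.

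Against MEM with 10% FBS at 90% confluence, members went both ways in every comparison. These 5 comparisons share the 2 MEM arrays, which stood apart as described above and on which KRT8 was high and SOX10 low, and the part of this difference in the results was not tested. The MEM arrays gave the highest mean of the 6 conditions for 18 members and the lowest for 10, without a count over all probes to set beside these. ZWINT read 11.22 and 11.14 with MEM, above all other 10 arrays (8.20 to 10.12), and AURKB read 11.04 and 11.19 (8.46 to 10.15 on the others). HMMR read 8.64 and 8.72 with MEM, below all other 10 arrays (9.38 to 11.02), and CENPA read 8.48 and 8.53 (9.18 to 10.62 on the others). Genes of the same structure, such as the kinetochore, thus lay at opposite ends.

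With 0.1% FBS 30 members were downregulated and 5 upregulated against MEM, where 22.3% of all probes were called (10.9% higher, 11.5% lower). The call took in 74.5% of the members and 49.2% of all probes above background (23.8% higher, 25.4% lower). At 2-fold 22 members and 6.43% of all probes were called. The median of the members was -0.89. ZWINT read 8.20 and 8.99 with 0.1% FBS against 11.22 and 11.14 with MEM, 5.99-fold lower (-2.58, SE 0.19, adjusted p = 3.48e-08). AURKB read 8.46 and 8.96 against 11.04 and 11.19, 5.28-fold lower (-2.40), and CDCA5 9.40 and 9.99 against 11.61 and 11.63 (-1.93). Their products act at kinetochores, centromeres and sister chromatids, and the arrays did not overlap. TOP2A (-1.90), CDC2 (-1.77), KIF11 (-1.73), BIRC5 (-1.70) and CDCA3 (-1.69) were next. FOXM1 (-1.56) and CCNB1 (-1.01) were lower as well, and MKI67 was at least 2.08-fold lower, with its 0.1% FBS arrays at background. The 5 upregulated members were HMMR (1.08), CENPA (0.72), INCENP (0.51), CENPF (0.49) and CCNB2 (0.40). CDC20, largest against 50% confluence, differed by -0.85 here, with 11.74 and 11.65 on the MEM arrays.

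With HS 21 members were downregulated and 7 upregulated against MEM (21.9% of all probes, 10.4% higher and 11.5% lower), and the median was -0.44. The call took in 59.6% of the members and 48.1% of all probes above background (22.8% higher, 25.4% lower). At 2-fold 13 members and 5.32% of all probes were called. ZWINT read 9.32 and 9.30 with HS against 11.22 and 11.14 with MEM (-1.87, adjusted p = 1.52e-06), and KIF11 8.19 and 8.15 against 9.91 and 9.88 (-1.73). CDC2 (-1.68), TOP2A (-1.56), AURKB (-1.40) and CDCA5 (-1.30) were the next lower members. MKI67 (-1.11) and CCNB1 (-0.55) were lower too, and FOXM1 (-0.40) was not called. HMMR, 10.40 and 10.31 with HS against 8.64 and 8.72 with MEM, was 3.21-fold higher (1.68), followed by CENPA (1.29), CENPF (1.07), CCNB2 (0.76), PLK1 (0.71), PRC1 (0.62) and CDC20 (0.53).

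With DMEM 13 members were lower and 11 higher than with MEM (20.9% of all probes, 10.0% higher and 10.9% lower), and the median was -0.09. The call took in 51.1% of the members and 45.8% of all probes above background (21.8% higher), so the members' share lay near that of other expressed genes. At 2-fold 8 members and 5.10% of all probes were called. HMMR read 11.02 and 10.82 with DMEM against 8.64 and 8.72 with MEM, 4.75-fold higher (2.25, SE 0.17, adjusted p = 8.57e-08). CENPA read 10.42 and 10.62 against 8.48 and 8.53, 4.03-fold higher (2.01). CENPF (1.37), CCNB2 (1.00), PLK1 (0.98), CDC20 (0.94), PRC1 (0.80), ASPM (0.70), KIF20A (0.61), PTTG1 (0.53) and CENPE (0.43) were the other higher members. ZWINT (-1.57), CDC2 (-1.47), NDC80 (-1.41), AURKB (-1.09) and TOP2A (-0.76) were lower, MKI67 (-0.51) too, and FOXM1 (0.11) and CCNB1 (-0.34) were not called.

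With RPMI-1640 the balance turned, with 20 members higher and 8 lower than with MEM (19.2% of all probes, 9.42% higher and 9.82% lower) and a median of 0.17. The call took in 59.6% of the members and 42.4% of all probes above background (20.7% higher, 21.7% lower). At 2-fold 8 members and 4.43% of all probes were called. HMMR (2.27), CENPA (2.01), PRC1 (1.29), CCNB2 (1.19), TTK (1.16) and ECT2 (1.03) rose most. TTK read 10.51 and 10.36 with RPMI-1640 against 9.26 and 9.30 with MEM (adjusted p = 8.3e-05). The 8 lower members were AURKB (-1.20), ZWINT (-1.16), MKI67 (-0.75), CDC2 (-0.73), SPC25 (-0.69), CDC25C (-0.66), NDC80 (-0.63) and TOP2A (-0.51). FOXM1 (-0.19) and CCNB1 (-0.29) were not called. All 3 mitotic kinases and 4 of 5 cytokinesis genes were higher, and no gene of either role was lower.

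At 50% confluence 17 members were higher and 12 lower than with MEM at 90% confluence (19.8% of all probes, 9.42% higher and 10.3% lower), and the median was 0.16. The call took in 61.7% of the members and 43.8% of all probes above background (20.9% higher, 22.9% lower), and the share of members that were lower lay near that of other expressed genes. At 2-fold 9 members and 4.73% of all probes were called. By their labels these conditions differ in density alone, but KRT8 differed by -3.46 and SOX10 by 2.10 between them, so density and what sets the MEM arrays apart cannot be told apart. CENPA read 10.23 and 10.59 at 50% confluence against 8.48 and 8.53 at 90%, 3.74-fold higher (1.90, SE 0.12, adjusted p = 1.32e-08), and HMMR 10.30 and 10.52 against 8.64 and 8.72 (1.73). PLK1 (1.24), CCNB2 (1.14), PRC1 (1.13) and CDC20 (1.09) followed. The lower members were ZWINT (-1.26), AURKB (-1.22), TOP2A (-0.83), CDC2 (-0.76), NDC80 (-0.76), MKI67 (-0.74), CDC25C (-0.71), KIF11 (-0.66), CDKN3 (-0.66), SPC25 (-0.54), CDCA5 (-0.46) and ESPL1 (-0.40). FOXM1 (-0.38) and CCNB1 (-0.14) were not called. Without MEM array 2 the count was 19 members.

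Other genes of the cell cycle were read from lists to set beside the members. Of 69 other mitosis genes 51 were lower and 1 higher with 0.1% FBS than at 50% confluence, with a median of -0.63. CDCA2 (-1.63), FAM83D (-1.52), ANLN (-1.46) and SPC24 (-1.40) had the largest differences. Of 38 genes of G1/S and DNA replication 32 were lower and none was higher, with a median of -0.95. RRM2, the small subunit of ribonucleotide reductase, differed by -2.71, the largest in any of these lists, and UHRF1 (-2.20), CDC25A (-1.90) and CCNE2 (cyclin E2, -1.84) followed. Genes of the replication phase were thus low beside those of mitosis.

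The regulators gave smaller shares. Of 22 genes of MuvB, E2F and other regulators 8 were lower and 1 was higher, with a median of -0.16. E2F2 (-1.77), TFDP1 (a partner of E2F proteins, -1.11), RBL1 (p107, -0.74) and MYBL1 (-0.64) were lower, and RBL2 (p130, the pocket protein of DREAM in resting cells) was the one higher, by 0.64. Of 14 genes of the APC/C and its regulators 1 was lower, FBXO5 (EMI1, an inhibitor of the APC/C, -1.38), and no core subunit was called. Of 10 CDK inhibitors and D-type cyclins 4 were lower, CCND1 (cyclin D1, -1.75), CCND3 (-0.95), CDKN2D (-0.89) and CDKN2C (-0.63), and none was higher. Between 0.1% FBS and HS the counts were 23 lower and 1 higher of the other mitosis genes, 17 lower and 0 higher of G1/S and DNA replication, and 1 lower and 4 higher of the APC/C list.

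**Figure D5:**
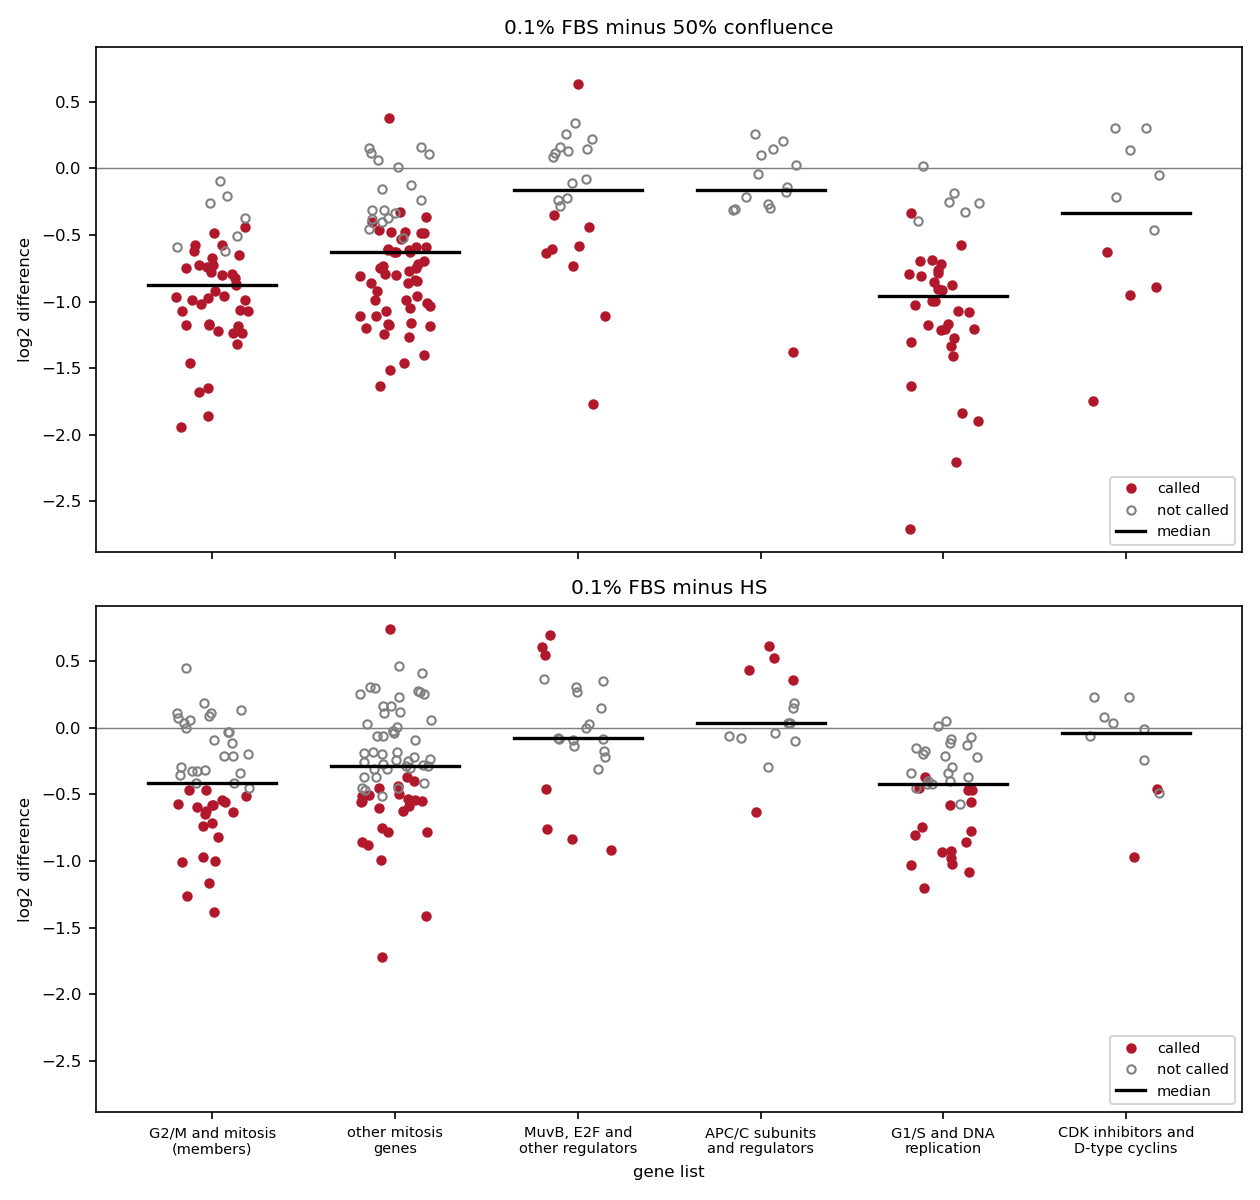
Log2 difference of each gene of 6 cell cycle lists (points, filled where called) between 0.1% FBS and 50% confluence (top) and between 0.1% FBS and HS (bottom), with the list median as a bar. In the top panel the members (-0.88) and the G1/S and DNA replication genes (-0.95) have the lowest medians, and the regulators and the APC/C list lie near 0.

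A second probe was at hand for some members. The table holds 27 other probes for 22 of them, of which 1 was above background nowhere. Between 0.1% FBS and 50% confluence 17 of the 27 were called in the direction of the probe used and none was called against it. Other probes of AURKA (-1.24), CENPA (-1.39), KIF11 (-1.14) and FOXM1 (-0.97) gave differences close to those above. The other probe of BIRC5, at a mean of 7.33, gave a smaller one (-0.92, against -1.65), and between 0.1% FBS and HS it was not called (-0.19, adjusted p = 0.469) while the probe used was (-1.26). A further probe of UBE2C was called higher with HS than with MEM (0.44) while the probe used was lower (-0.50), the one such case in the 9 comparisons. ZWINT was called by its probe at a mean of 8.17 (-1.13) and not by dimmer ones at 7.05 (-0.15) and 6.70 (-0.19).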

How the data were processed

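Biotin-labeled cRNA of 12 RNA samples was hybridized to Illumina HumanHT-12 v4 BeadChips. The authors exported the arrays with BeadStudio and normalized them by quantiles in limma, and deposited the signal intensity per probe together with its log2 values, which were used here. The deposited log2 table and the series values were identical, and a second quantile normalization moved values by at most 0.025. Limma 3.58.1 in R 4.3.3 was fitted to all 47231 probes and 12 arrays with 1 mean per condition, which left 6 residual degrees of freedom beside a prior of 8.96. For each of 9 comparisons and 2 F tests the Benjamini-Hochberg adjustment took in every probe, and an adjusted p under 0.05 was a call. No filter was set on low values. The fit was tested on simulated data. With 2 arrays per condition precision is limited by their number.

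The members and lists were chosen with earlier results of these data known. The 8 called members with the largest differences in each comparison, called members moving against most others, and MKI67, CCNB1, FOXM1, AURKB and TOP2A are named, with up to 4 genes of each other list. Where a probe was not above background on any array of a condition, the fold is a bound. Alternatives were scaling to the median or the 75th percentile, the series values, 1 or all probes per symbol, a background filter, the compared groups alone, a fit without MEM, trend and robust variance, the methods' t-test, a 2-fold limit, the replicate number as a block and the omission of single arrays. Figures were drawn with matplotlib 3.10.9.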

Additional observations from a re-analysis of the deposited data

How the results depend on the processing

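The deposited intensities were already normalized by quantiles, so scaling them again could change little and does not test the normalization. Scaling to the median or the 75th percentile, a second quantile normalization and the series values gave the main counts in all 9 comparisons. The results followed through 26 alternatives were 118, those of called members named by the rule above, and not every difference given in the text. No direction of these 118 reversed. At a 2-fold limit 67 of the 118 kept their call. By the methods' t-test 6 did at P under 0.001 and 0 after Benjamini-Hochberg. Of these alternatives, the fit without the MEM arrays covers only 38 of the 118 results. A further limit of 2-fold left 22 members called for 0.1% FBS against MEM, 13 for HS, 8 for DMEM, 8 for RPMI-1640 and 9 for 50% confluence against MEM, 1 for DMEM against RPMI-1640, 17 for 0.1% FBS against 50% confluence, 5 for 0.1% FBS against HS and 4 for HS against 50% confluence. By the methods' t-test at P under 0.001 the member counts in the same order were 0, 2, 3, 2, 0, 1, 2, 0 and 0. Over all 47231 probes they were 729, 712, 804, 603, 719, 118, 132, 125 and 172. After Benjamini-Hochberg the member count was 0 in each comparison. The counts over all probes were then 87, 54, 330, 62, 35, 0, 2, 0 and 0. That test estimates the spread from 2 arrays a group for each probe alone. With the compared groups alone in the fit, 0.1% FBS against HS gave 10 members instead of 21. Leaving out each array in turn gave 30 to 36 members for 0.1% FBS against MEM, 25 to 31 for HS, 19 to 31 for DMEM, 22 to 33 for RPMI-1640 and 19 to 30 for 50% confluence against MEM, 4 to 16 for DMEM against RPMI-1640, 30 to 45 for 0.1% FBS against 50% confluence, 14 to 28 for 0.1% FBS against HS, 10 to 29 for HS against 50% confluence, 44 to 47 for the F test over 6 conditions and 42 to 47 over 5. An array left alone in its condition was assumed to vary like the others. The share of all probes called in these fits is not given, and the cause of the moves was not tested. Differences between replicate numbers correlated weakly from condition to condition (-0.0619 to 0.129 over 15 pairs of conditions, 1 over 0.1). The labels do not say whether equal numbers mark arrays handled together, and weak correlations over all probes cannot decide it. With the replicate number as a block 42 members were called for 0.1% FBS against 50% confluence and 35 for 0.1% FBS against MEM, and all 118 named results kept their call. Probes near background, such as that of MKI67, limit what can be read of low genes.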
